A study of Ovis aries with 3 samples.

Results

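Non-cycling keratinocytes of the rumen lining were compared between lambs fed milk plus a concentrate starter and lambs fed milk plus alfalfa hay. The animals were Hu sheep sampled at 42 days of age, both groups had milk as their shared base, and a library from lambs on milk only is given beside them as a reference level. Cells had been released from the tissue with trypsin-EDTA and profiled by droplet-based single-cell RNA sequencing, in which each captured molecule is counted once as a UMI (unique molecular identifier). There was 1 library per diet. The labels do not say how many lambs each library held, so diet, animal and library preparation cannot be told apart, and no difference below had a replicate check or a test.

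Cells were chosen by measured counts of marker genes. A cell was included if it had at least 500 detected genes, under 20% of UMIs from 13 mitochondrially encoded genes, and at least 5 UMIs of KRT15, a keratin of basal keratinocytes. It also had at most 1 UMI summed over the mitotic genes TOP2A, CENPF, NUSAP1, TPX2 and ASPM. PTPRC, COL3A1, PECAM1 and C1QA, which mark leukocytes, fibroblasts, endothelium and macrophages, had to be at 0, and the differentiation genes KRTDAP, A2ML1 and KRT36 together at no more than 2 UMIs. These limits kept 4980 hay cells and 3191 concentrate cells, 8171 of the 25789 barcodes in all 3 libraries. The same limits kept 1809 milk-only cells. KRT15 was at exactly 5 UMIs in 54 hay and 15 concentrate cells, and 40 and 6 further cells missed the limit at 4 UMIs.

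The rumen epithelium is a stratified lining whose basal keratinocytes divide, attach to the basement membrane and supply the layers above. The tissue absorbs the short-chain fatty acids made by microbial fermentation, and its cells oxidise butyrate and release ketone bodies. Solid feed starts this fermentation in the young lamb, and concentrate ferments faster than forage.

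The selected cells had a keratinocyte profile. Of 11 keratinocyte markers that had a symbol in the files, none was at 0 in either library, and 9 reached at least 10 CPM (counts per 1000000 summed UMIs). KRT15 is in both counts, and its presence was fixed by the selection. TP63, the lineage factor of stratified epithelia, was at 37.4 CPM with hay and 43.7 CPM with concentrate. Marker lists of other cell types, without the genes used for selection, differed in level. The T and NK cell list summed to 1.14 and 1.11 CPM with hay and concentrate, the macrophage and dendritic list to 1.34 and 1.76 CPM, and the endothelial list to 1.41 and 1.99 CPM. The fibroblast list summed to 4.03 and 29.3 CPM, of which DCN alone made 2.22 and 25.8 CPM. The neutrophil list, which holds the alarmins S100A8, S100A9 and S100A12 that keratinocytes can also express, summed to 52.9 and 139 CPM, with 4 of 7 markers measured. The cells of the 2 libraries differed in depth, with medians of 5627.5 UMIs and 1079.5 genes with hay against 7453 UMIs and 1371 genes with concentrate. Mitochondrially encoded genes made a median of 9.84% and 10.4% of the UMIs. In all, 29778680 hay UMIs and 26086863 concentrate UMIs were summed, and 28 barcode sequences occurred in both libraries.

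Most of the transcriptome lay close together in the 2 libraries. Of 4303 genes with at least 10 CPM in either library, 142 (3.30%) were at least 2-fold higher with concentrate and 26 (0.604%) at least 2-fold lower. At 1.5-fold, 590 (13.7%) were higher and 100 (2.32%) lower, and the remaining 3613 genes lay within 1.5-fold. The median log2 ratio, concentrate over hay, was 0.16. When the libraries were rescaled so that this median was 0, genes past 2-fold numbered 90 higher and 40 lower, so the higher share of such genes was 69.2% in place of 84.5%. The genes named below were selected on this same ratio or come from lists chosen with it known, so counts and ratios are a description. Ratios carry exact 95% intervals that cover counting error only.

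**Figure D1:**
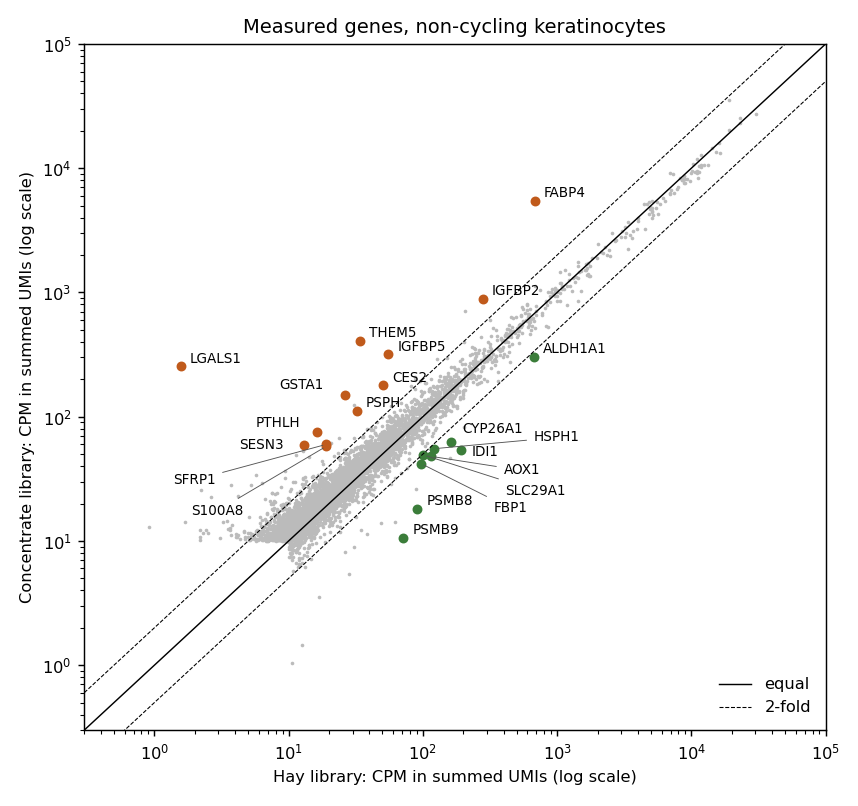
Level of each measured gene in the summed UMIs of non-cycling keratinocytes, hay library on the x axis and concentrate library on the y axis, both in CPM on log scales. Orange points mark the 12 highest ratios and green points the 9 lowest at 50 CPM or more. Among these coloured points LGALS1 and THEM5 stand farthest above the equal line, and PSMB9 and PSMB8 farthest below it.

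Genes of fatty acid handling were among those with the largest ratios. FABP4, a cytosolic carrier of long-chain fatty acids, was at 684 CPM with hay, 5495 CPM with concentrate and 1270 CPM with milk only. Concentrate was therefore 8.03-fold above hay (7.92 to 8.15), and milk only lay between them. THEM5, a mitochondrial acyl-CoA thioesterase, was at 33.8, 409 and 120 CPM in the same order, a ratio of 12.1 (11.3 to 12.9). CES2, a carboxylesterase that cleaves ester bonds of lipids and drugs, was at 50.6, 179 and 70.8 CPM, 3.54-fold higher with concentrate (3.34 to 3.75). All 3 genes were highest in the concentrate library. PLIN2, a coat protein of lipid droplets, went the other way, at 75.7 CPM with hay and 38.5 CPM with concentrate, 1.97-fold lower (1.83 to 2.12). Of 26 genes listed as fatty acid carriers and lipid storage, 12 were measured, and their median log2 ratio was 0.18. Of these, 3 were at least 1.5-fold higher and 2 lower, against 13.7% and 2.32% of all measured genes.

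The enzymes of butyrate use had no common direction. Of 13 measured genes of butyrate oxidation and ketone body synthesis, 6 were above hay and 7 below, with a median log2 ratio of -0.17. None was 1.5-fold higher and 1 was 1.5-fold lower, against 13.7% and 2.32% of all measured genes. The lower gene was BDH1, which interconverts acetoacetate and 3-hydroxybutyrate. BDH1 was at 855 CPM with hay, 527 CPM with concentrate and 406 CPM with milk only, 1.62-fold lower with concentrate (1.59 to 1.65). ACAA2, a mitochondrial thiolase, was at 1284, 1027 and 580 CPM. Hay was highest and milk only lowest for both enzymes. ACAT2, a cytosolic thiolase, was at 22.7, 30.6 and 38.4 CPM, 1.35-fold higher with concentrate (1.21 to 1.49). The list differed between ranges of UMIs per cell. Among cells of 3000 to 6000 UMIs, 7 of 12 measured genes were 1.5-fold lower, against 8.78% of all genes measured in that range. Above 12000 UMIs it was 1 of 13, against 4.79% of all.

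Among transport genes, CA1, a carbonic anhydrase that makes bicarbonate from carbon dioxide, was at 18989 CPM with hay, 35121 CPM with concentrate and 16202 CPM with milk only, a ratio of 1.85 (1.84 to 1.86). CA2, a second carbonic anhydrase, was at 16.9, 3.57 and 3.34 CPM, 4.75-fold lower with concentrate (3.80 to 5.99), and from 3.34-fold to 13.9-fold lower over the ranges of UMIs per cell, on as few as 10 UMIs. The pair thus moved in opposite directions between the diets. SLC4A7, a sodium bicarbonate cotransporter, was 1.79-fold higher with concentrate (1.60 to 1.99), at 18.1 and 32.3 CPM. Of 9 measured genes for acid, ion and urea transport, 4 were 1.5-fold higher and 2 lower, against 13.7% and 2.32% of all genes. In cells of 3000 to 6000 UMIs the CA1 ratio was 1.09 (1.09 to 1.10), and in cells of 6000 to 12000 UMIs it was 1.75 (1.74 to 1.75). The list median, 0.55 over all cells, was -0.13 in the shallower range.

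LGALS1 had the largest ratio among genes with a symbol and at least 50 CPM. This gene encodes galectin-1, a secreted lectin usually made by mesenchymal and immune cells. It was at 1.58 CPM with hay (47 UMIs), 255 CPM with concentrate (6653 UMIs) and 15.5 CPM with milk only, and the concentrate level was 162-fold that of hay (121 to 220). The per-cell level had a median of 178 CPM in the concentrate library and 0 in the hay library. Fibroblast-type cells of the concentrate library were taken as cells with at least 3 UMIs of COL3A1 and under 5 of KRT15 (54 cells). They carried LGALS1 at 3425 CPM together with the collagen gene COL1A2 at 11136 CPM. In the keratinocytes COL1A2 was at 0.13 CPM with hay and 0.23 CPM with concentrate, and LGALS1 at 1.58 and 255 CPM. VIM, the filament gene of mesenchymal cells, was at 0.24 and 1.99 CPM in the keratinocytes. The part of stromal RNA in the keratinocyte LGALS1 level was not tested.

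Several secreted growth regulators were higher with concentrate. IGFBP5, a binding protein of insulin-like growth factors, was at 55.4 CPM with hay, 318 CPM with concentrate and 274 CPM with milk only, a ratio of 5.74 (5.44 to 6.05). IGFBP2, of the same family, was at 280, 893 and 1434 CPM, a ratio of 3.19 (3.11 to 3.27). PTHLH, which encodes parathyroid hormone-related protein, was at 16.2, 75.1 and 3.85 CPM, a ratio of 4.63 (4.19 to 5.12). SFRP1, a secreted antagonist of Wnt ligands, was at 19.0, 59.8 and 66.9 CPM, a ratio of 3.14 (2.85 to 3.47). Hay was lowest for IGFBP5, IGFBP2 and SFRP1, whereas PTHLH was lowest with milk only. FST, the activin antagonist follistatin, was at 7.89 and 24.0 CPM with hay and concentrate. Of 18 measured growth factors and receptors, 7 were 1.5-fold higher with concentrate and none 1.5-fold lower, against 13.7% and 2.32% of all genes. Their median log2 ratio was 0.45. In cells of 3000 to 6000 UMIs, 19 of 24 were higher and 1 was lower, where 24.5% and 8.78% of all measured genes were.

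Among 21 measured matrix, actin and galectin genes, 9 were at least 1.5-fold higher and none 1.5-fold lower, with a median log2 ratio of 0.50. Of all measured genes 13.7% and 2.32% were, with a median of 0.16. DCN, the small matrix proteoglycan decorin, was at 2.22 CPM with hay, 25.8 CPM with concentrate and 239 CPM with milk only, a ratio of 11.7 (9.04 to 15.3). COL18A1, a collagen of basement membranes, was at 10.8, 29.8 and 34.1 CPM, a ratio of 2.75 (2.41 to 3.14). Stromal cells of the concentrate library held DCN at 13475 CPM and COL1A2 at 11136 CPM, while in its keratinocytes DCN was at 25.8 CPM and COL1A2 at 0.23 CPM. The whole fibroblast list had 6 of 13 markers at 0 with hay and 4 with concentrate, among them LUM, DPT and PDGFRB in both, and the part of stromal RNA in the DCN level was not tested. The DCN ratio depended on the cells: it was 33.9 (23.5 to 50.6) among cells of 3000 to 6000 UMIs, 7.95 (5.38 to 12.2) among those of 6000 to 12000 UMIs and 4.20 (3.02 to 5.99) in cycling cells.

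**Figure D2:**
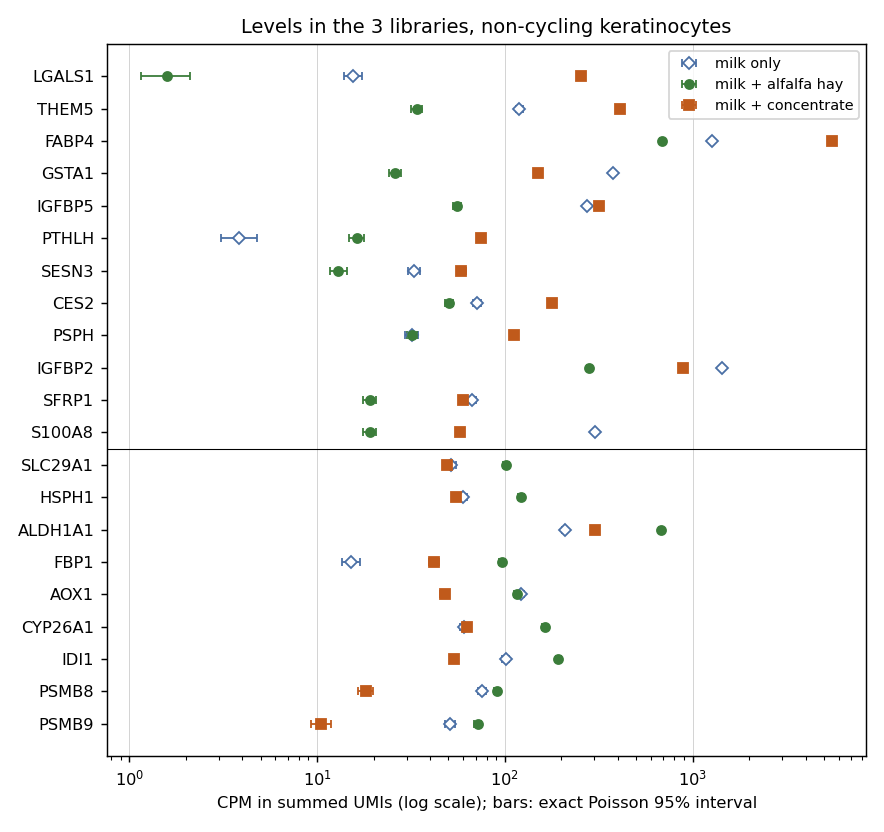
Level in CPM (log scale) of the genes with the highest ratios (above the line) and the lowest ratios (below it) in non-cycling keratinocytes of each diet's library. Each point is the summed UMIs of 1 library and bars are exact Poisson 95% intervals; for LGALS1 the hay level is 1.58 CPM and the concentrate level 255 CPM, and for FABP4 684 and 5495 CPM.

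Genes of growth arrest and p53 response were higher with concentrate. All 8 measured members of that list were at least 1.5-fold higher, against 13.7% of all measured genes. Their log2 ratios ran from 0.64 to 2.18 with a median of 0.72, against a median of 0.16 for all. SESN3, a stress-inducible sestrin that restrains mTORC1, was at 13.0 CPM with hay, 58.8 CPM with concentrate and 32.7 CPM with milk only, a ratio of 4.52 (4.04 to 5.07). GADD45B, a stress sensor of the growth arrest family, was at 57.7, 122 and 552 CPM, a ratio of 2.11 (1.99 to 2.24). CCNG1, a p53-induced cyclin, was at 17.8 and 30.2 CPM with hay and concentrate, and SESN1 was at 6.11 and 10.3 CPM. After rescaling to a median of 0, 4 of the 8 were 1.5-fold higher, against 7.23% of all genes, and all 8 had ratios above 1. Among cells over 12000 UMIs 4 of 7 were, against 18.0% of all genes there.

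Defence genes held large ratios. GSTA1, a glutathione transferase that detoxifies lipid peroxidation products, was at 26.1 CPM with hay, 151 CPM with concentrate and 375 CPM with milk only, a ratio of 5.77 (5.34 to 6.24). MT2A, a metallothionein, was at 19.5, 56.4 and 173 CPM, and GCLM, a subunit of the enzyme that starts glutathione synthesis, at 9.50, 20.2 and 19.2 CPM. MGST3, a microsomal glutathione transferase, was at 5601 CPM with hay and 4252 CPM with concentrate, so the group had no common direction. Of its 17 measured members 5 were 1.5-fold higher and 2 lower, against 13.7% and 2.32% of all genes. GSTA1, MT2A and CES2 belong to families of close paralogues whose counts may be shared. The alarmins S100A8, S100A12 and S100A9 were 3.03-fold (2.75 to 3.34), 4.40-fold (3.90 to 4.97) and 2.24-fold (1.93 to 2.61) higher with concentrate. The 10% of concentrate cells highest in each gene held 88.5%, 94.0% and 100% of its UMIs in the same order, and 80.3% for GSTA1. With hay it was 100% for all 4 genes, at lower levels. These ratios thus describe few cells, not a shift across the keratinocytes. S100A8 was at 19.1, 57.8 and 302 CPM with hay, concentrate and milk only. Neutrophils also carry these alarmins. Of the other genes on the neutrophil list, MMP9 had 409 UMIs with hay and 312 with concentrate, FCGR3A had 2 and 3 UMIs, and CSF3R and LTF were at 0 in both. The part of neutrophil RNA in these levels was not tested.

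PSPH, the enzyme of the last step of serine synthesis, was at 32.1 CPM with hay, 112 CPM with concentrate and 31.9 CPM with milk only, 3.49-fold higher with concentrate (3.25 to 3.76). PHGDH, which catalyses the first step, was at 29.6, 43.9 and 48.5 CPM. Of 10 measured genes for serine, one-carbon and amino acid synthesis, 2 were 1.5-fold higher and none 1.5-fold lower. Across all measured genes the shares were 13.7% and 2.32%. Of 12 measured genes of glycolysis and pyruvate fate, 6 were above hay and 6 below. At 1.5-fold 3 were higher and 3 lower, against 13.7% and 2.32% of all genes. PKM, pyruvate kinase, was at 202, 398 and 313 CPM, 1.97-fold higher with concentrate (1.91 to 2.03). GAPDH, the highest-level gene of this list, was 1.35-fold higher (1.33 to 1.37). The gluconeogenic genes were lower: FBP1 was at 97.1, 41.9 and 15.2 CPM, 2.32-fold lower (2.16 to 2.49), FBP2 at 365, 193 and 148 CPM, 1.89-fold lower (1.83 to 1.95), and PCK2 at 54.3, 33.0 and 17.5 CPM. FBP1 and FBP2 are fructose bisphosphatases and PCK2 is the mitochondrial phosphoenolpyruvate carboxykinase. The FBP1 difference varied with UMIs per cell, from 6.24-fold lower among cells of 3000 to 6000 UMIs to 1.58-fold lower above 12000 UMIs.

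Among genes of at least 50 CPM the lowest ratios were those of immunoproteasome genes, whose subunits replace constitutive ones to make peptides for class I presentation. PSMB9 was at 71.6 CPM with hay, 10.5 CPM with concentrate and 51.1 CPM with milk only, 6.79-fold lower with concentrate (5.99 to 7.73). PSMB8 was at 90.7, 18.2 and 75.2 CPM, 4.98-fold lower (4.52 to 5.50). B2M, the light chain of class I molecules, was at 28.2, 5.41 and 26.9 CPM, 5.23-fold lower (4.37 to 6.29). For these genes hay and milk only were close and concentrate stood below both. These were the 3 genes past 1.5-fold among 9 measured for antigen presentation, where 2.32% of all genes were 1.5-fold lower. None of the 9 was 1.5-fold higher, though 4 were above hay by less. Leukocytes of the same libraries were taken as cells with at least 3 UMIs of PTPRC and under 5 of KRT15. They held PSMB8 at 2546 CPM (14 hay cells) and 2124 CPM (23 concentrate cells). The T and NK cell list summed to 1.14 and 1.11 CPM in the keratinocytes, and the part of leukocyte RNA in these differences was not tested. Of 25 measured constitutive proteasome genes none passed 1.5-fold in either direction, and their median log2 ratio was 0.06. Of all measured genes 13.7% were 1.5-fold higher and 2.32% lower.

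The retinoid enzymes CYP26A1 and ALDH1A1 were lower with concentrate. CYP26A1, which degrades retinoic acid, was at 163 CPM with hay, 63.1 CPM with concentrate and 60.8 CPM with milk only, 2.59-fold lower (2.45 to 2.74), and from 5.42-fold lower among cells of 3000 to 6000 UMIs to 2.22-fold above 12000 UMIs. ALDH1A1, which makes retinoic acid from retinal, was at 676, 303 and 208 CPM, 2.23-fold lower (2.18 to 2.29). AOX1, an aldehyde oxidase, was at 115, 47.9 and 121 CPM, 2.41-fold lower (2.26 to 2.57). The receptor gene RARG was 1.77-fold higher (1.57 to 2.0), at 15.3 and 27.1 CPM with hay and concentrate. Only 4 of 24 listed retinoid and vitamin D genes were measured.

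IDI1, isopentenyl diphosphate isomerase of the cholesterol pathway, was at 193 CPM with hay, 53.7 CPM with concentrate and 101 CPM with milk only, 3.59-fold lower with concentrate (3.39 to 3.81). IDI1 was the 1 of 7 measured cholesterol genes past 1.5-fold, where 13.7% of all genes were higher and 2.32% lower. HSPH1, a chaperone of the HSP110 family, was at 122, 55.3 and 59.6 CPM, 2.21-fold lower (2.07 to 2.35), and HSP90AA1 at 3354, 2227 and 2391 CPM was 1.51-fold lower (1.49 to 1.52). Of 14 measured heat shock genes these were the 2 past 1.5-fold, where 2.32% of all genes were 1.5-fold lower. None was 1.5-fold higher, against 13.7% of all genes, though 3 were above hay by less. In cells of 3000 to 6000 UMIs 4 of 14 were 1.5-fold higher and 1 lower, near the 24.5% and 8.78% of all genes in that range. SLC29A1, a nucleoside transporter, was at 101, 49.3 and 51.6 CPM, 2.05-fold lower (1.92 to 2.19), the smallest difference among the genes named for a low ratio.

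Desmosome and basal anchoring genes were more often above hay than below it. So were measured genes as a whole, with a median log2 ratio of 0.16, against 0.46 for desmosome genes and 0.56 for basal genes. DSP, the desmosomal plaque protein desmoplakin, was at 316 CPM with hay, 600 CPM with concentrate and 212 CPM with milk only, a ratio of 1.90 (1.85 to 1.95). DSC3, a desmosomal cadherin, was at 67.9, 114 and 110 CPM. All 7 measured desmosome genes were above hay, 3 of them by at least 1.5-fold, against 13.7% of all measured genes. GJA1, the gap junction protein connexin 43, was at 87.7, 198 and 50.3 CPM, a ratio of 2.26 (2.16 to 2.37). CLDN1, a tight junction claudin, was at 14.0, 8.74 and 16.2 CPM, 1.60-fold lower with concentrate (1.36 to 1.89). Of 10 measured genes of tight, adherens and gap junctions, 3 were 1.5-fold higher and 1 lower, against 13.7% and 2.32% of all genes. COL17A1, the hemidesmosome collagen, was at 85.8, 138 and 125 CPM, and ITGA2, a collagen-binding integrin, at 40.8, 65.1 and 85.9 CPM. Of 11 measured genes of the basal layer and its anchoring, 5 were 1.5-fold higher and none lower, and IGFBP2 and IGFBP5 are counted among them. After rescaling to a median of 0, 2 of these 11 and 1 of the 7 desmosome genes were 1.5-fold higher, where 7.23% of all genes were.

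Energy genes were nearly level, and so were cycle genes within these cells, which were chosen as non-cycling. Of 46 measured nuclear genes of oxidative phosphorylation, 1 was 1.5-fold higher and none lower, against 13.7% and 2.32% of all genes. Their median log2 ratio was 0.01. The higher one was NDUFS3, a complex I subunit, at 57.1 and 95.6 CPM with hay and concentrate. In cells of 3000 to 6000 UMIs, 9 of the 46 were 1.5-fold lower, against 8.78% of all genes there, and their median was -0.40. None of 16 S phase genes and none of 9 G2 and M phase genes passed 1.5-fold, where 13.7% of all genes were higher and 2.32% lower. The G2 and M phase genes were counted without the mitotic genes used for selection. Median log2 ratios were -0.09 for the S phase genes and -0.02 for the G2 and M phase genes. The limit on the mitotic genes left cycling cells out of both libraries, so these values cannot show whether cycling differed.

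**Figure D3:**
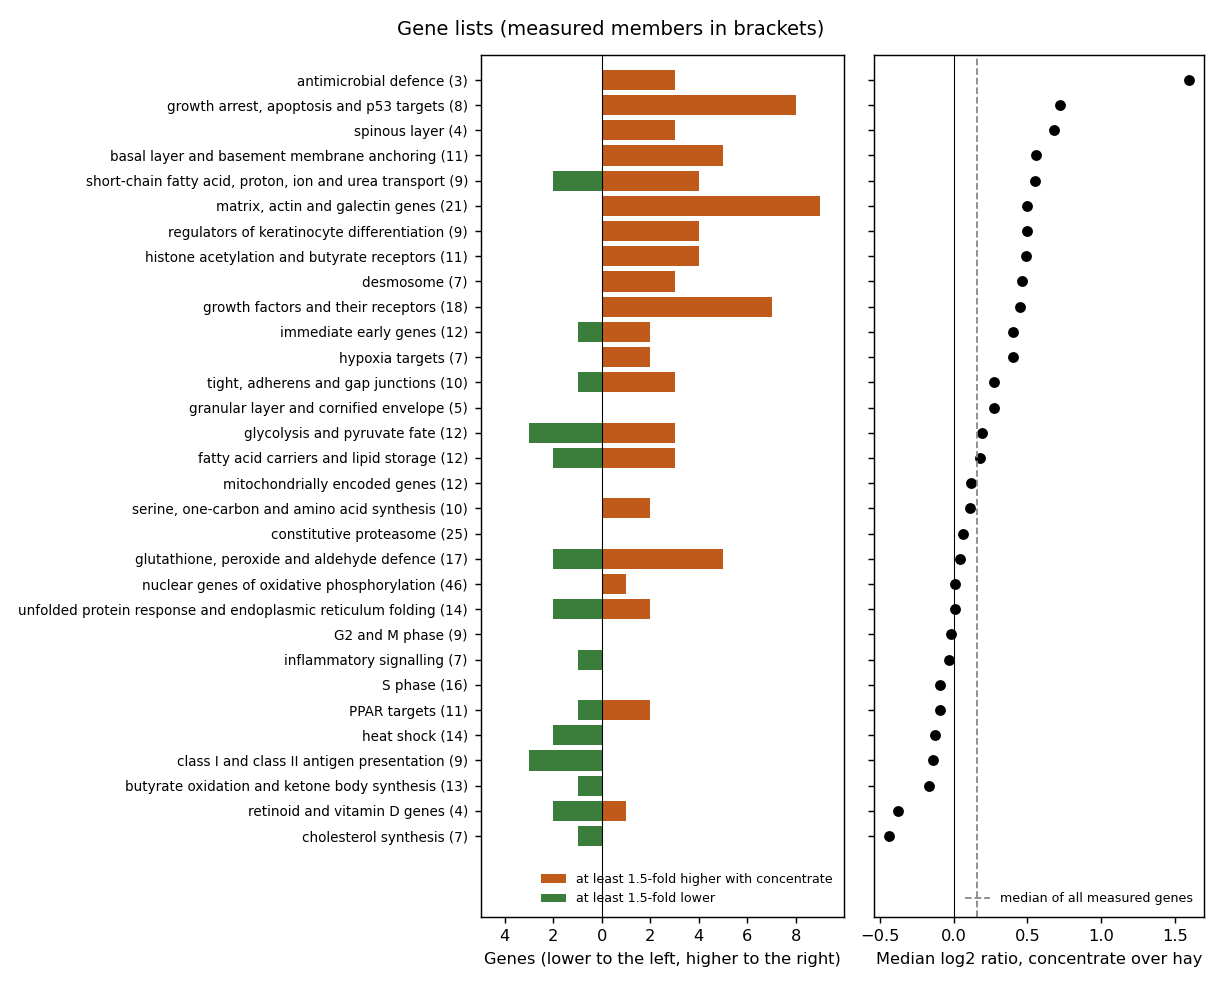
Gene lists with at least 3 measured members. Left, number of genes at least 1.5-fold higher (orange, to the right) or lower (green, to the left) with concentrate than with hay; right, median log2 ratio of each list (points) with the median of all measured genes, 0.16, as a dashed line. The growth arrest list has 8 of 8 genes to the right, and the antigen presentation and heat shock lists have genes only to the left. Of all measured genes 13.7% were 1.5-fold higher and 2.32% lower.

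Among measured identifiers without a symbol, ENSOARG00000007446 was at 30.4 CPM with hay and 125 CPM with concentrate, and ENSOARG00000009518 at 12.7 and 52.5 CPM. ENSOARG00000015002 was at 62.1 and 14.1 CPM, and ENSOARG00000000351 at 89.4 and 26.3 CPM. Both of the latter were lower with concentrate.

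Milk only did not take one fixed place beside the 2 solid diets. Of the 12 genes with the highest ratios, milk only lay between hay and concentrate for 6, above both for 4 and below both for 2. Of the 9 with the lowest ratios it lay between them for 5, below both for 3 and above both for 1.

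Cells outside the selection showed the same directions. Cycling keratinocytes, with at least 5 UMIs of the mitotic genes, numbered 911 with hay and 807 with concentrate. In them all 12 genes with high ratios were again at least 2-fold higher with concentrate, and 6 of 9 with low ratios at least 2-fold lower. Of all genes measured in those cells, 3.02% and 0.642% were. The other 3, ALDH1A1, CYP26A1 and SLC29A1, were lower by less than 2-fold. LGALS1 was at 2.49 and 321 CPM in cycling cells and FABP4 at 412 and 5207 CPM. Among 1068 hay and 1058 concentrate cells at 20% or more mitochondrial UMIs, 12 of 12 and 8 of 9 passed 2-fold in the same directions, with SLC29A1 the exception, against 4.35% and 1.59% of all genes measured there. These cells come from the same libraries, so they are not replicates.

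Several ratios differed between ranges of UMIs per cell. Among cells of 3000 to 6000 UMIs (2657 hay, 934 concentrate) FABP4 was at 645 and 2128 CPM, a ratio of 3.30 (3.20 to 3.40). Among cells of 6000 to 12000 UMIs (1996 hay, 1652 concentrate) it was at 679 and 5598 CPM, a ratio of 8.25 (8.08 to 8.42). The GSTA1 ratio was 2.29 (1.90 to 2.76) in the shallower and 4.75 (4.27 to 5.29) in the deeper range, and that of GJA1 1.24 (1.10 to 1.39) and 2.17 (2.04 to 2.32). Log2 ratios in cells of 3000 to 6000 UMIs and of over 12000 UMIs were 2.65 and 3.60 for THEM5, 1.19 and 1.23 for CES2, 1.66 and 2.97 for PTHLH, and 2.78 and 1.63 for SESN3. They were 2.71 and 0.67 for FST, 0.82 and 1.47 for COL18A1, 0.27 and 1.58 for GCLM, and -1.08 and -0.30 for MGST3. In the range between, CES2 was at 1.96 and COL18A1 at 1.80. For S100A12 they were 1.28 and 3.28, for S100A9 0.65 and 3.22, and for PSMB8 -1.66 and -3.12. None of these changed sign, and the hay library had under 30 UMIs above 12000 UMIs per cell for PTHLH, SESN3, FST, COL18A1, GCLM, S100A12 and S100A9. LGALS1 stayed between log2 ratios of 7.25 and 7.51 over the 3 depth ranges, IGFBP2 between 1.57 and 1.88, and PSMB9 between -2.28 and -2.91.

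**Figure D4:**
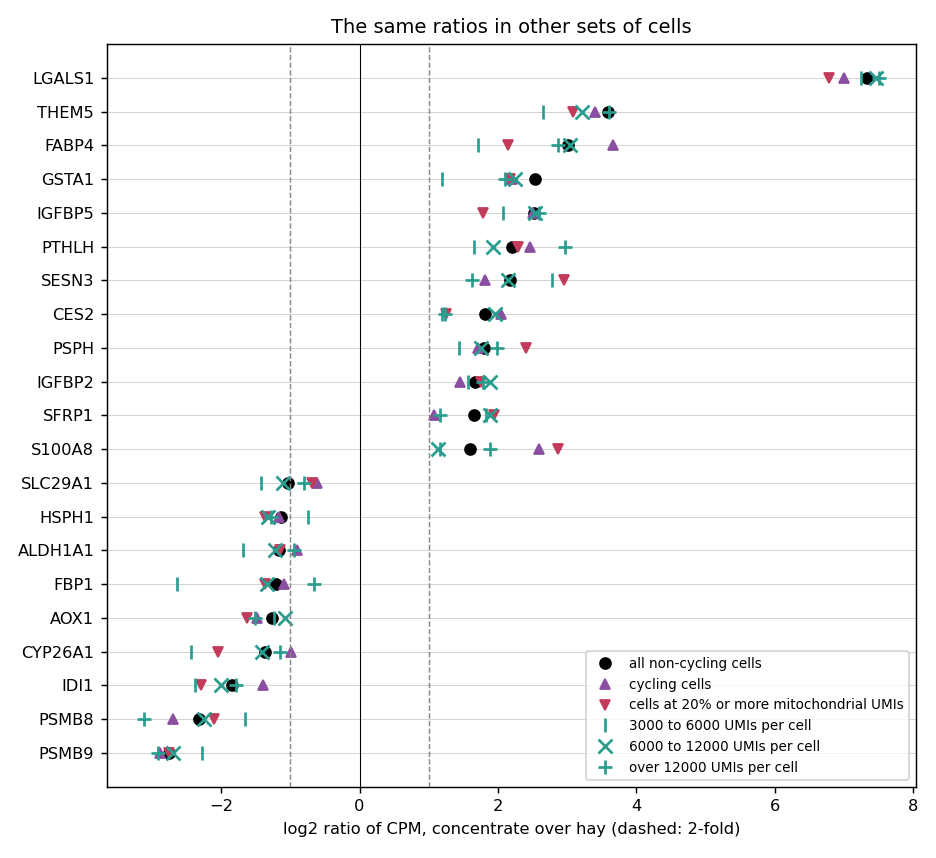
Log2 ratio of CPM, concentrate over hay, for the same 12 and 9 genes in all selected cells, in cycling cells, in cells at 20% or more mitochondrial UMIs and in 3 ranges of UMIs per cell. All points lie on the same side of 0 as the selected cells; FABP4 ranges from 1.72 to 3.66, and LGALS1 from 6.78 to 7.51.

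The concentrate cells were not uniform, and FABP4 separated them. Their per-cell FABP4 level had a median of 2849 CPM, against 134 CPM with hay. Sorted by FABP4 share into 4 bins of near-equal cell number, the concentrate cells had FABP4 at 23.1, 1167, 5338 and 11860 CPM from the lowest bin to the highest. CA1 was at 10681, 27207, 44961 and 45613 CPM in these bins, THEM5 at 116, 334, 501 and 544 CPM, and GJA1 at 18.1, 143, 292 and 254 CPM. Those 3 genes thus ran with FABP4. LYPD3, a surface protein of suprabasal keratinocytes, did so too, at 13.6 CPM in the lowest bin and 153 CPM in the highest.

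Other genes ran against FABP4. CCDC80, a secreted matrix protein chosen after its values were seen, was at 684, 266, 29.1 and 18.5 CPM from the lowest bin to the highest. ZFP36, which destabilises inflammatory mRNAs, was at 854, 359, 39.3 and 30.8 CPM, and JUN, an AP-1 subunit, at 2267, 898, 204 and 209 CPM. DCN was at 89.7, 34.0, 5.05 and 2.83 CPM. These 4 transcripts were highest in the FABP4-low cells of the concentrate library. LGALS1 and IGFBP2 were spread more evenly, at 209, 222, 249 and 311 CPM and at 881, 929, 864 and 899 CPM. KRT15 was at 8934 CPM in the lowest and 8094 CPM in the highest bin, and COL1A2 at 0.86 CPM in the lowest.

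The lowest bin had a median of 5379.5 UMIs and the highest 9333 UMIs, so depth moved with the split. In the ratios by range of UMIs per cell above, depth and cell state were therefore not told apart. Within concentrate cells of 6000 to 12000 UMIs, bins with medians of 7618 to 8975 UMIs showed the same order of extremes: CCDC80 was at 378 CPM in the lowest and 20.8 CPM in the highest, ZFP36 at 446 and 36.5 CPM, and CA1 at 17173 and 43760 CPM. With hay, FABP4 was at 0 in all 1245 cells of the lowest bin and in 1101 of the next, so these were not ordered. From the lowest to the highest hay bin CCDC80 went from 143 to 29.2 CPM, ZFP36 from 266 to 50.6 CPM, GJA1 from 43.0 to 156 CPM and CA1 from 14693 to 25482 CPM. The directions matched those in the concentrate library, with smaller spans for all 4.

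The ratios of ZFP36 and JUN changed sign with the cells included. ZFP36 was at 163 CPM with hay and 253 CPM with concentrate over all selected cells, a log2 ratio of 0.63. Its log2 ratio was 2.05 among cells of 3000 to 6000 UMIs and -0.84 above 12000 UMIs, and it was -0.10 without the lowest FABP4 bin of each library. JUN had log2 ratios of 0.30 over all cells, 1.54 in the shallow range and -0.36 without the lowest FABP4 bin. FOSL2, another AP-1 subunit, kept its sign: its log2 ratio was 1.37 over all cells and between 0.85 and 1.94 in the 22 alternatives. MYC, a growth-promoting transcription factor, was at -0.68 and between -0.85 and -0.35. Of 12 measured immediate early genes, 2 were 1.5-fold higher with concentrate and 1 lower, against 13.7% and 2.32% of all genes. In the shallow range 12 of 14 were 1.5-fold higher, where 24.5% of all measured genes were. GADD45B had a log2 ratio of 1.08 over all cells and 0.40 without the lowest FABP4 bin. Leaving out that bin removed all 696 concentrate cells at 0 FABP4 but kept 1101 such hay cells, so the trimmed sets were not alike.

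**Figure D5:**
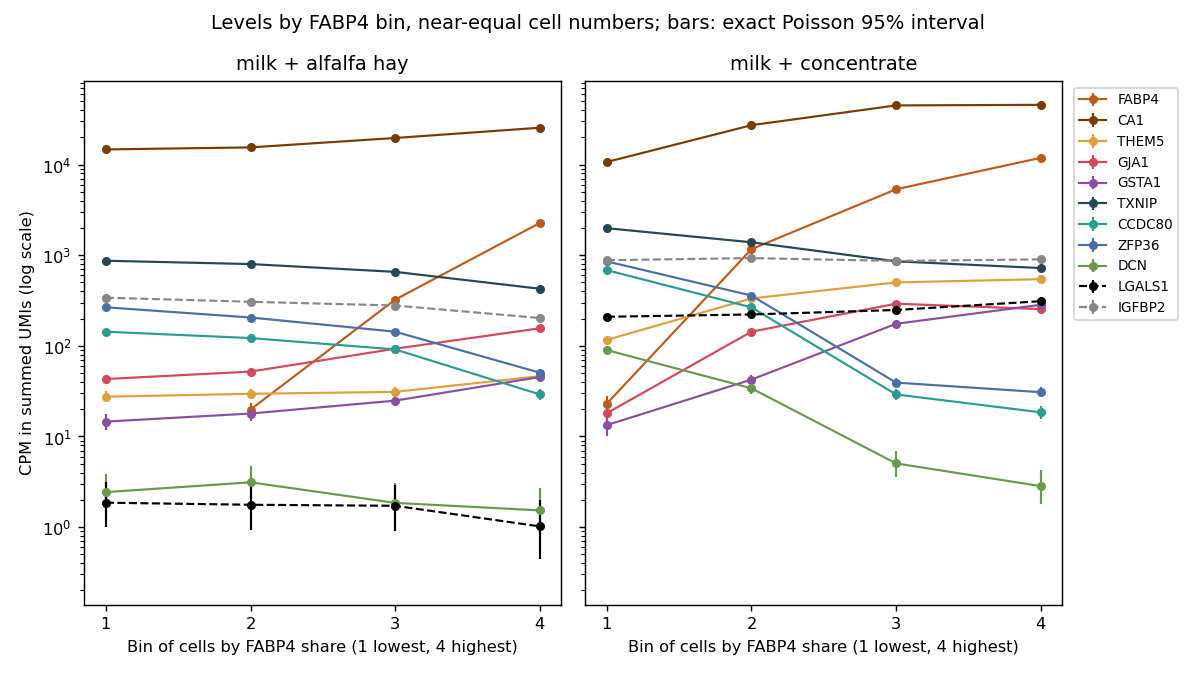
Levels in CPM (log scale) of 11 genes in bins of the hay cells (left) and concentrate cells (right), ordered by FABP4 share; bars are exact Poisson 95% intervals and values of 0 are not drawn. In the concentrate library CCDC80 goes from 684 to 18.5 CPM and CA1 from 10681 to 45613 CPM, while LGALS1 and IGFBP2 (dashed) stay between 209 and 311 CPM and between 864 and 929 CPM.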

How the data were processed

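The deposited matrices held UMI counts per gene and barcode, made by the authors with Cell Ranger, per the file headers version 5.0.0 and per the submitters' processing notes version 3.1. The genome build, the annotation and the rule for keeping barcodes were not stated in any source used here, and coordinates are left out. The shallowest deposited barcode had 2263 UMIs with hay, 1047 with concentrate and 727 with milk only, and the libraries held 56861548, 60220174 and 63057979 UMIs. Of 26247 listed genes, 9204 had no symbol. Cells were selected by the limits stated in the report, with pandas 2.3.3, scipy 1.17.1 and numpy 2.4.6 under Python 3.11.15, and their counts were summed per library and scaled to CPM. No doublet caller was run. With 1 library per diet no test was made. Levels carry exact Poisson and ratios exact conditional binomial 95% intervals, checked on simulated data. A gene with 0 counts was set to 3 counts in log2 ratios. Named genes were the 12 highest and up to 12 lowest ratios (9 qualified) among genes with a symbol carried by 1 identifier, at least 50 CPM and 2-fold with an interval excluding 1, without ribosomal protein, mitochondrially encoded and selection genes, then up to 4 genes with the largest log2 ratios and the highest-level gene of each list. The cells, gene lists and rules were chosen with earlier results of these data known. The 4 bins of cells by FABP4 share, the 20% mitochondrial and the cycling cell sets were added after seeing the data. Alternatives covered scaling, gene and cell limits, cell depth and shared barcodes.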

Additional observations from a re-analysis of the deposited data

How the results depend on the processing

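Against 142 genes at least 2-fold higher, 26 lower and a median log2 ratio of 0.16, median-of-ratios scaling gave 90, 40 and 0.00. Genes from 1 CPM gave 662 higher and 102 lower, and genes from 50 CPM 31 and 13. Cells of 3000 to 6000 UMIs gave 389 higher and 113 lower, cells of 6000 to 12000 UMIs 42 lower, and cells over 12000 UMIs, with 101 hay and 458 concentrate cells, 247 higher and 45 lower. Cells at 20% or more mitochondrial UMIs gave 66 lower and a median of 0.05. Fewer genes or cells entered several of these settings, and the cause of the other differences was not tested. Cycling cells, cells without the lowest FABP4 bin and cells at 20% or more mitochondrial UMIs were alternatives chosen after seeing the data. In the remaining alternatives run, the counts stayed within 1.5 times. The 21 genes named for high or low ratios kept their direction in all 22 alternatives. Those that came under 2-fold in at least 1 were FBP1, ALDH1A1, CYP26A1, HSPH1 and SLC29A1. Genes near 10 CPM rest on few UMIs in the shallow and deep ranges. No paired analysis was possible because each diet had 1 library, and no library could be left out.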
